A study of Mus musculus with 7 samples.

Results

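The 44 genes described here encode the machinery that brings nuclear-encoded proteins into mitochondria, folds them there and degrades them. They were taken from 19505 genes named on the arrays as every gene whose symbol starts with Tomm or Timm followed by a digit, plus 19 named chaperones, motor subunits, processing peptidase subunits and proteases. The cells were labelled as splenic type 1 conventional dendritic cells (cDC1), a cell type specialised in cross-presentation to CD8 T cells. They were sorted from C57BL/6 mice bearing tumors of B16-OVA, a melanoma line that expresses ovalbumin. There were 3 arrays from wild-type mice (WT) and 4 from mice with a floxed Opa1 gene and a Cre recombinase under CD11c control (KO). CD11c is also expressed by other dendritic cells and some macrophages, so the recombination is not limited to cDC1, and all mice of both groups carried tumors. The labels used here give no age and no Cre or flox status of the WT mice, and do not say whether each array is its own mouse. The p-values below therefore reflect the spread among arrays, part of which may be technical. The comparison asks what the loss of Opa1 does to this set of transcripts.

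OPA1, a dynamin-like GTPase, joins inner mitochondrial membranes during fusion and shapes cristae. Nearly all mitochondrial proteins are made in the cytosol and enter through the TOM complex of the outer membrane. From there, precursors with a cleavable presequence are drawn through the TIM23 channel by a motor built around mortalin, the mitochondrial HSP70, whereas carrier proteins are handed by small TIM chaperones to the TIM22 channel. In the matrix the presequence is cut off, HSP60 and HSP10 fold the protein, and LONP1, CLPXP and membrane-bound AAA proteases remove what is damaged. Induction of these chaperones and proteases is the usual readout of the mitochondrial unfolded protein response.

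The targeted gene itself separated incompletely. Opa1 (probe set TC1600000387.mm.2) had log2 values of 8.14, 8.80 and 9.15 in WT and 7.70, 7.10, 6.85 and 8.24 in KO, given here and below in the order of the replicate numbers, so the array labelled KO 4 lay above the array labelled WT 1. The difference, KO minus WT, was -1.22 (limma, adjusted p = 0.223), and an exact two-sided permutation test gave p = 0.114, where the smallest p for 3 against 4 arrays is 0.0571. The probe set is dim: on every array it read above the median but under the 95th percentile of the negative control probe sets. On KO 3 it read 6.85, where that median was 6.67. Where its probes lie relative to the deleted part was not analysed here. Markers of the arrays labelled WT 1 and WT 2 went in part against their labelled cell type, so whether they hold splenic cDC1 RNA is in doubt. The mean log2 value of 12 melanocyte and melanoma genes, all 12 measured, was 11.89, 12.23 and 9.18 in WT and 7.33 to 8.05 in KO, and in 11 of the 12 every WT array lay above every KO array. The mean of 12 cDC1 markers was 10.79, 9.21 and 11.74 in WT and 11.79 to 11.87 in KO. Of these, Xcr1 and Clec9a read only 7.97 and 7.29 on WT 2 but 12.12 and 10.46 on WT 1. Cd8a read 7.89 on WT 1 and 6.96 on WT 2, against 11.95 to 12.12 on the other 5 arrays. Tyr, the melanocyte tyrosinase, read 11.96 and 12.31 on WT 1 and WT 2, 8.80 on WT 3 and at most 7.15 in KO. The mean of 7 cDC2 genes was 8.29, 10.34 and 8.80 in WT, against at most 8.53 on the KO arrays. For 7 measured monocyte and macrophage genes it was 8.73, 10.50 and 9.10 in WT, against at most 8.74. Of the cDC2 genes, Esam and Clec4a4 did not read above the KO range on WT 2. None of these markers lay at or under the median of the negative control probe sets on every array. Fewer cells of a type and less RNA per cell cannot be told apart in such samples. The differences from all 7 arrays rest on a WT group that contains WT 1 and WT 2, and values without them are given further on. Those values rest on WT 3, which also read above every KO array in 11 of the 12 melanocyte and melanoma genes. The part of these marker differences in the results, with or without WT 1 and WT 2, was not tested.

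No import, chaperone or protease gene passed the test between the groups. Among the 44, 0 reached an adjusted p under 0.05 (limma, smallest adjusted p 0.223), as did 0.0% of all genes, and 5 had an unadjusted p under 0.05, where 19.6% of all genes did. Of those 5, Hspd1, Tomm20, Dnajc15 and Timm17a had lower means in KO (10.6% of all genes) and Tomm20l a higher one (8.98% of all genes). In 3 genes, Tomm20, Dnajc15 and Timm17a, every WT array lay above every KO array, which is 6.82% of the members, against 5.92% of all genes in that direction, and 0 members showed the opposite separation, against 7.85% of all genes. Over both directions 13.8% of all genes separated, so the members' share is not above the background.

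Differences in this machinery were small. The fitted KO minus WT values ran from -0.59 (Hspd1) to 0.32 (Tomm20l), with a median of -0.05, while the median over all 19505 genes was 0.06. The KO mean was lower in 27 of the 44 genes, or 61.4% where 40.1% of all genes were lower, and higher in 17. With median centring of the arrays 22 were lower and the members' median was 0.01, beside 0.12 over all genes. With quantile normalization 21 were lower and the members' median was 0.01, beside 0.06 over all genes. The genes that changed sign under these scalings were Afg3l2, Dnaja3, Hspe1, Timm22, Timm44 and Timm8a1, all with differences between -0.07 and 0 in the deposited scaling. Of the 40 members kept by a filter on dim probe sets, 27 were lower in KO, with a median of -0.09 beside 0.03 over all genes kept. The negative control median was 6.19, 6.26 and 6.71 in WT and 6.49 to 6.88 in KO. Its part in the signs was not tested. The 95% interval of the difference lay entirely within 1 log2 unit of 0 for 41 of the 44 genes, all but Tomm40, Hspd1 and Clpp, and within 0.5 for 27. For most members a doubling or halving of the transcript would thus fall outside the interval, which does not show that the groups are alike. Of the 44 members, 42 read above the median of the negative control probe sets on every array, and 21 above their 95th percentile on every array. Tomm20, Dnajc15, Pmpca and Lonp1 were among those 21, and Hspd1, Tomm40, Clpp and Timm17a were not.

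**Figure D1:**
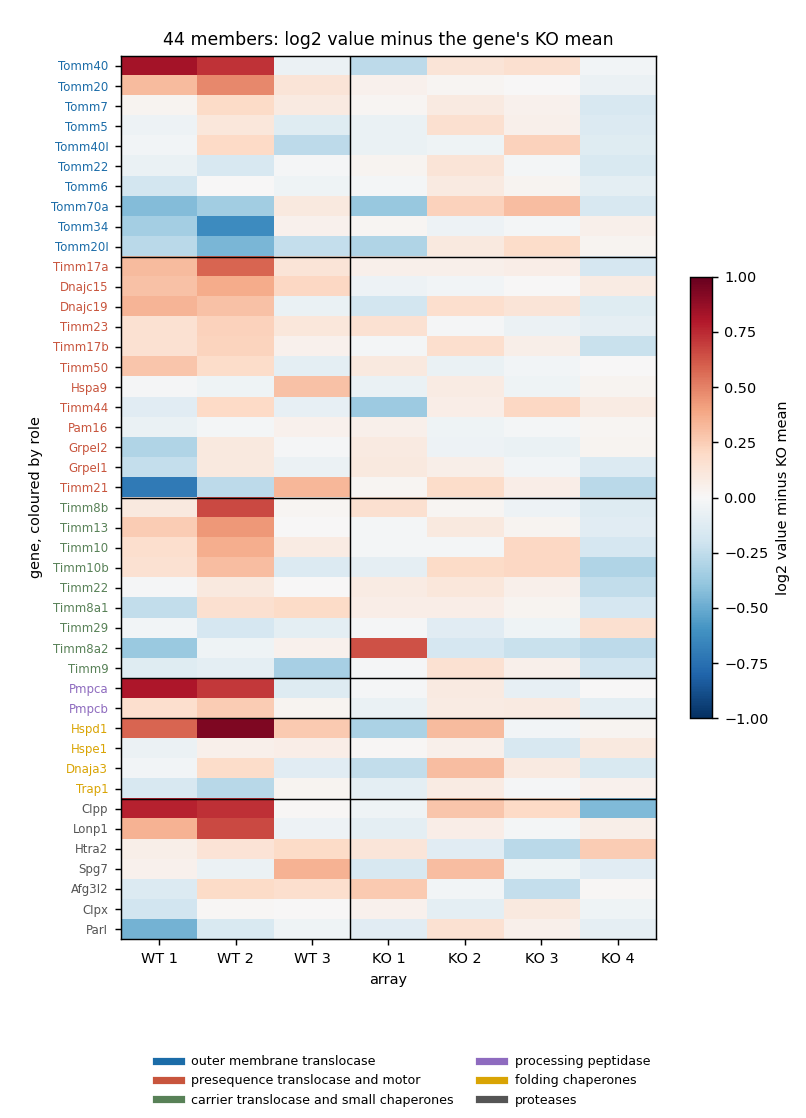
Heat map of the 44 genes (rows, grouped and coloured by role) on the 7 arrays (columns); the colour is the log2 value minus the gene's mean over the 4 KO arrays, from -1 to 1. Tomm40, Pmpca and Clpp are dark red on WT 1 and WT 2 and pale on WT 3, where Pmpca reads -0.13.

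**Figure D2:**
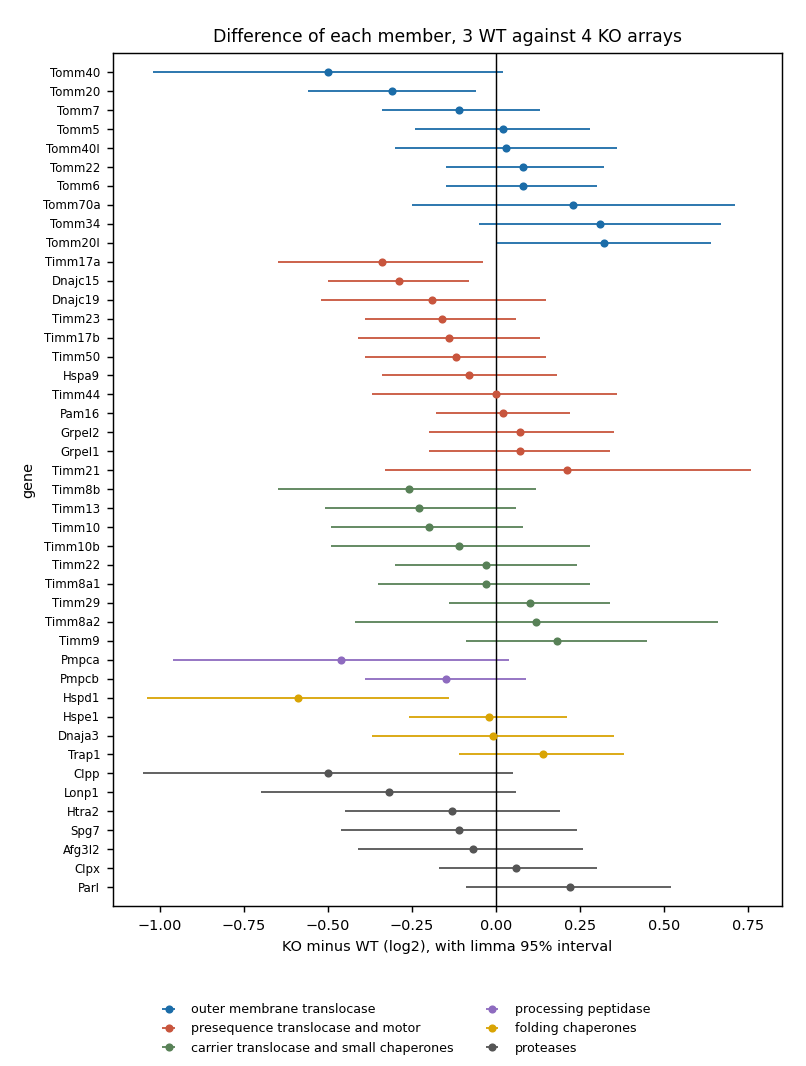
Fitted KO minus WT difference (log2, horizontal axis) of each gene (vertical axis) with its limma 95% interval from 3 WT and 4 KO arrays. The points lie between -0.59 and 0.32.

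Among the subunits of the outer membrane gate, the presequence receptor lay lower in KO without overlap, as 5.92% of all genes did. The small subunits Tomm5, Tomm6 and Tomm7 overlapped. Tomm20, the receptor that binds presequences, read 11.48, 11.64 and 11.29 in WT and 11.20, 11.19, 11.17 and 11.11 in KO. All WT arrays were above all KO arrays, and the lowest, WT 3, was 0.13 above the KO mean. The difference was -0.31, with a 95% interval of -0.56 to -0.06 (limma, adjusted p = 0.224). Tomm40, the channel-forming barrel, read 10.62, 10.51 and 9.73 in WT and 9.52, 9.92, 9.95 and 9.76 in KO. WT 1 and WT 2 were above every KO array, but WT 3 lay within the KO range, and the difference of -0.50 had an interval of -1.02 to 0.02. Tomm7, a small subunit that regulates the complex, read 13.05, 13.22 and 13.11 in WT and 13.05, 13.11, 13.06 and 12.87 in KO, so the groups overlapped (-0.11). For the other small subunits, Tomm5 and Tomm6, and for the central receptor Tomm22, the differences were 0.02, 0.08 and 0.08. Tomm34, a cytosolic co-chaperone of import, had a higher mean in KO by 0.31, with 10.41 and 10.13 on WT 1 and WT 2 and 10.80 on WT 3, against 10.70 to 10.81 in KO. Tomm70a, the receptor for carrier precursors, differed by 0.23 and overlapped. Tomm20l read 5.26, 5.06 and 5.29 in WT and 5.22, 5.62, 5.70 and 5.55 in KO, at or under the negative control median on every array, so its difference of 0.32 is one between background values.

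In the presequence translocase and its motor, 2 of 12 genes, Dnajc15 and Timm17a, lay lower in KO without overlap, as did 5.92% of all genes. Dnajc15, an inner membrane J protein of the import motor, read 11.67, 11.75 and 11.59 in WT and 11.33, 11.34, 11.38 and 11.45 in KO. The 3 WT arrays stood above the KO mean by 0.29, 0.37 and 0.21, and above every KO array. The difference was -0.29 with an interval of -0.50 to -0.08 (limma, adjusted p = 0.223). Timm17a, a subunit of the TIM23 channel, read 10.60, 10.87 and 10.42 in WT and 10.33, 10.34, 10.36 and 10.12 in KO. The gap between WT 3 and the highest KO array was small, and the difference was -0.34 with an interval of -0.65 to -0.04 (limma, adjusted p = 0.233).

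The channel itself, Timm23, differed by -0.16 and its receptor Timm50 by -0.12, both with overlap. Dnajc19, the J protein paralogous to Dnajc15, read 11.94, 11.90 and 11.53 in WT and 11.43, 11.77, 11.74 and 11.49 in KO, with WT 3 inside the KO range (-0.19). Hspa9, which encodes mortalin, read 9.65, 9.62 and 9.95 in WT and 9.59, 9.74, 9.62 and 9.69 in KO. WT 1 and WT 2 lay within the KO range and only WT 3 above it, so the group difference was -0.08. Its nucleotide exchange factors Grpel1 and Grpel2 both differed by 0.07, Pam16, which holds the J protein on the channel, by 0.02, and Timm44, which tethers mortalin to the channel, overlapped, with the same mean of 9.24 in each group. Timm21, which couples the channel to the TOM complex, read 8.07, 8.52 and 9.11 in WT and 8.51 to 8.95 in KO: WT 1 was below every KO array and WT 3 above every one.

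**Figure D3:**
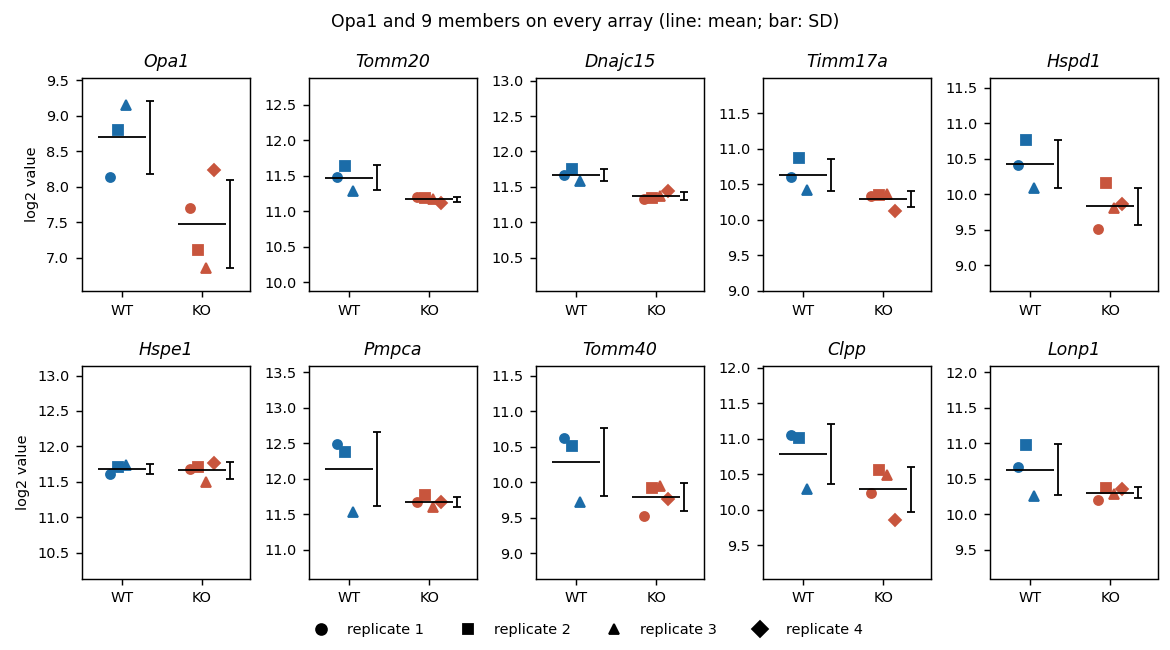
Log2 value (vertical axis, 3 units tall in each panel) of Opa1 and 9 members on each array, WT in blue and KO in red, with the symbol shape giving the replicate number; lines are means and bars SD (n = 3 WT, n = 4 KO). Tomm20, Dnajc15 and Timm17a show no overlap, while WT 3 (triangle) lies among or below the KO arrays for Pmpca, Tomm40, Clpp and Lonp1.

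In the carrier branch differences ran from -0.26 to 0.18. Of its 9 genes 6 had a lower mean in KO, among them Timm22 and Timm8a1, which changed sign when the arrays were centred on their medians or quantile normalized. Timm13, a small chaperone of the intermembrane space that acts with TIM8, read 12.07, 12.25 and 11.83 in WT and 11.80, 11.92, 11.85 and 11.71 in KO. WT 3 lay within the KO range and the difference was -0.23. Timm10, which with TIM9 escorts carrier precursors, read 10.16, 10.35 and 10.07 in WT and 9.97, 9.97, 10.21 and 9.82 in KO, a difference of -0.20 with overlap. Its partner Timm9 had the opposite sign, 0.18, and WT 3, at 8.45, was below every KO array (8.58 to 8.93). Timm8b differed by -0.26, where WT 2 read 9.08 and the other 6 arrays 8.29 to 8.59. The channel Timm22 and its partner Timm29 differed by -0.03 and 0.10, Timm10b by -0.11 and Timm8a1 by -0.03. Timm8a2, at 5.75 to 6.77, did not exceed the negative control median on any array. Whether probes of Timm8a1 and Timm8a2 can be told apart was not analysed here.

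The processing peptidase that removes presequences has a pair of subunits, and they differed from each other in how the WT arrays lay. Pmpca, the substrate-binding subunit, read 12.49, 12.38 and 11.54 in WT and 11.67, 11.77, 11.60 and 11.67 in KO. WT 1 and WT 2 were far above the narrow KO range and WT 3 was below it. The difference was -0.46 (interval -0.96 to 0.04; limma, adjusted p = 0.274). Pmpcb, the catalytic subunit, read 12.26, 12.35 and 12.12 in WT and 12.03, 12.17, 12.19 and 11.99 in KO, a difference of -0.15 with WT 3 in the KO range.

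Of the folding chaperones, HSP60 had the largest fitted difference of the 44 genes and its co-chaperonin one near 0. Hspd1, which encodes HSP60, read 10.41, 10.76 and 10.09 in WT and 9.51, 10.15, 9.80 and 9.86 in KO. The groups overlapped only through WT 3 and KO 2, and the difference was -0.59 with an interval of -1.04 to -0.14 (limma, adjusted p = 0.223). Hspe1, which encodes HSP10, the lid of the HSP60 cage, read 11.61, 11.71 and 11.74 in WT and 11.68, 11.71, 11.50 and 11.77 in KO. Its difference was -0.02 (interval -0.26 to 0.21), and no WT array left the KO range. Trap1, the mitochondrial HSP90, read 9.83, 9.71 and 10.02 in WT and 9.88, 10.06, 9.98 and 10.02 in KO, a difference of 0.14. Dnaja3, a matrix J protein, differed by -0.01.

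Hspd1 and Hspe1 are transcribed away from each other, so the stretch between their start sites is shown, since the arrays gave different values for the genes on its sides. Taken from RefSeq, it covers 215 bases, chr1:55087933-55088147 on GRCm38.p6, printed 5′ to 3′ on the plus strand, the strand of Hspe1. It lies between the Hspd1 start at 55087932, 1 of 2 in RefSeq, and the Hspe1 start at 55088148.
Hspd1-Hspe1: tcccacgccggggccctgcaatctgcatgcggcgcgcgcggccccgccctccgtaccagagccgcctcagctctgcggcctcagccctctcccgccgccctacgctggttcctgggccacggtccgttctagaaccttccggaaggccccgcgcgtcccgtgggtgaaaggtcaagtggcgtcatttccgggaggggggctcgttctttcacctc
The second Hspd1 start lies beyond the start of Hspe1.

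Among the proteases, the peptidase and the unfoldase of the CLPXP complex gave different values. Clpp, the peptidase, read 11.05, 11.01 and 10.29 in WT and 10.24, 10.56, 10.49 and 9.85 in KO. WT 3 lay within the KO range, which was wide, and the difference was -0.50 (interval -1.05 to 0.05; limma, adjusted p = 0.278). Clpx, the unfoldase, differed by 0.06 (interval -0.17 to 0.30). Lonp1, the main soluble matrix protease, read 10.66, 10.97 and 10.25 in WT and 10.20, 10.37, 10.28 and 10.36 in KO, a difference of -0.32 with WT 3 in the KO range. Htra2, the intermembrane space protease also known as OMI, read 11.22, 11.31 and 11.35 in WT and 11.28, 11.06, 10.90 and 11.42 in KO, and the groups overlapped (-0.13). Afg3l2 and Spg7, which form the matrix-facing AAA protease, differed by -0.07 and -0.11. Parl, the rhomboid protease of the inner membrane, had a higher mean in KO by 0.22 (interval -0.09 to 0.52), with 10.80, 11.12 and 11.23 in WT and 11.16 to 11.42 in KO.

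Set side by side, partner genes shared a pattern in some pairs and not in others. On WT 1 to 3, relative to the KO mean, Hspd1 stood at 0.58, 0.93 and 0.26 and Hspe1 at -0.06, 0.05 and 0.07. Clpp stood at 0.77, 0.73 and 0.01 and Clpx at -0.19, 0.01 and 0.00. Pmpca stood at 0.81, 0.71 and -0.13 and Pmpcb at 0.17, 0.25 and 0.03, so both subunits were higher on WT 1 and WT 2 than on WT 3, by different amounts. Tomm40 stood at 0.83, 0.72 and -0.06, whereas its paralog Tomm40l, at 7.40 to 7.90 on all arrays, stood at -0.03, 0.20 and -0.26. Grpel1 and Grpel2 were alike, at -0.24, 0.10 and -0.06 and at -0.30, 0.10 and -0.01. These differences between partners were not tested.

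**Figure D4:**
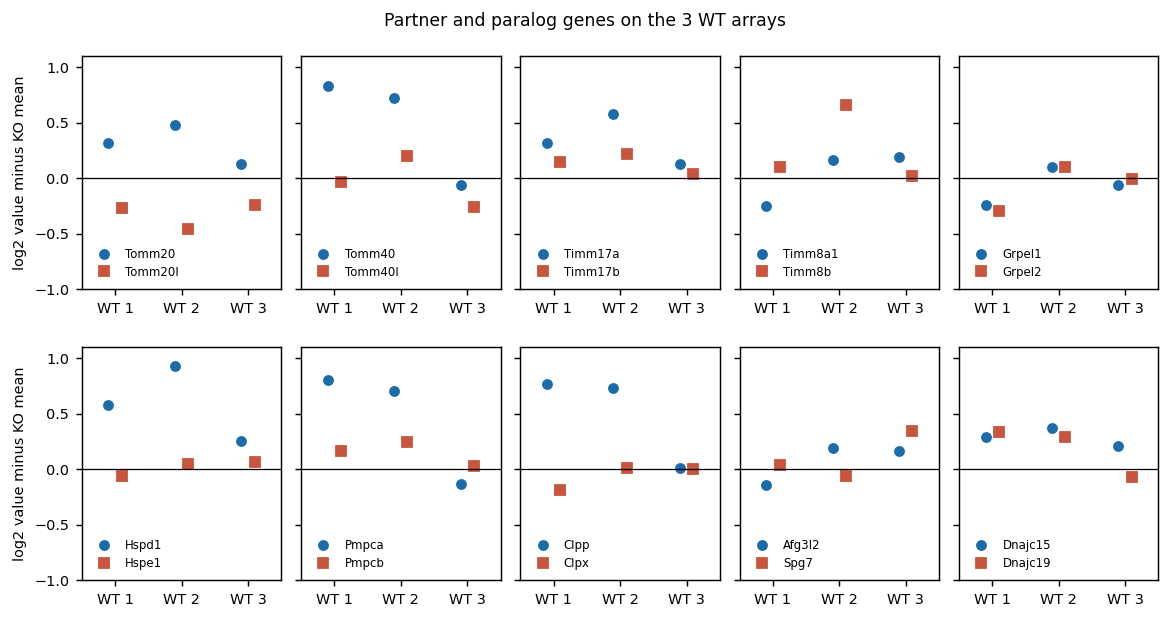
Log2 value minus the gene's KO mean (vertical axis) on the 3 WT arrays (horizontal axis) for 10 pairs of partner or paralog genes, 1 panel a pair. Tomm40, Hspd1, Pmpca and Clpp lie between 0.58 and 0.93 on WT 1 and WT 2, and their partners between -0.19 and 0.25.

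How many of these genes were called changed with the WT arrays included. Without WT 3, 9 of the 44 (20.5%) passed an adjusted p under 0.05 in limma, where 25.3% of all genes did. The 8 lower in KO, where 13.8% of all genes were called lower, were Pmpca (-0.76, adjusted p = 0.00122), Tomm40 (-0.78, 0.0045), Hspd1 (-0.75, 0.0161), Lonp1 (-0.51, 0.0181), Clpp (-0.75, 0.0211), Tomm20 (-0.40, 0.027), Timm17a (-0.45, 0.033) and Dnajc15 (-0.33, 0.0491), and the 1 higher, where 11.4% of all genes were, was Tomm34 (0.49, 0.0171). The WT group of that fit holds only WT 1 and WT 2. With array weights 8 members passed, against 22.9% of all genes. Without WT 1 and WT 2, 0 members passed in limma, and 0 had an unadjusted p under 0.05, where 0.0% and 5.92% of all genes did. In that fit WT 3 is the whole WT group and takes its spread from the KO arrays. The members' differences ran from -0.35 (Spg7) to 0.33 (Timm9), with a median of -0.02 beside 0.02 over all genes. Pmpca then stood at 0.13, Tomm40 at 0.06, Lonp1 at 0.05 and Clpp at -0.01. Dnajc15 stood at -0.21 (interval -0.52 to 0.10), Hspd1 at -0.26 (-0.78 to 0.25), Tomm20 at -0.13 (-0.43 to 0.18) and Timm17a at -0.13 (-0.48 to 0.22). Opa1 stood at -1.67 in the same fit.

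**Figure D5:**
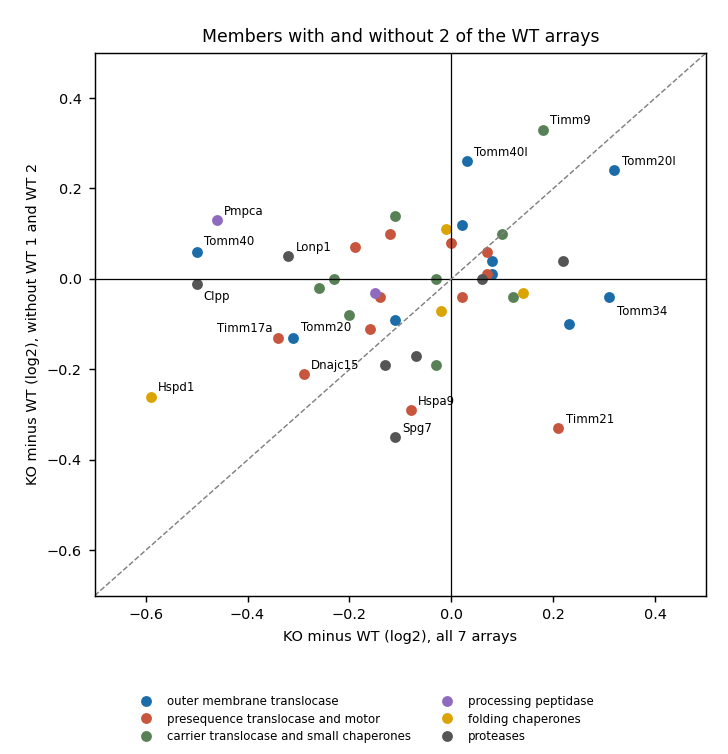
Each point is 1 of the 44 genes, coloured by role: KO minus WT (log2) from all 7 arrays on the horizontal axis and without WT 1 and WT 2 on the vertical axis, with the dashed line at equal values. Pmpca, Tomm40, Lonp1 and Clpp move from -0.32 or lower to between -0.01 and 0.13, and Dnajc15 from -0.29 to -0.21.

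Array by array, WT 3 read within the KO range in 33 of the 44 genes (75.0%), against 57.7% of all genes, above it in 7 and below it in 4 (18.1% and 24.2% of all genes). The 7 were Tomm20, Dnajc15, Timm17a, Timm8a1, Timm21, Hspa9 and Spg7. WT 2 read above the KO range in 20 members (45.5%), against 28.1% of all genes, and below it in 6 (42.1% of all genes). WT 1 read above it in 12 and below it in 12 (28.3% and 33.6% of all genes). The median member stood at -0.02, 0.17 and 0.02 relative to the KO mean on WT 1 to 3, and the median of all genes at -0.03, -0.09 and -0.02. Among the KO arrays, KO 4 was the lowest in 21 of the 44 genes and KO 2 the highest in 19; over all genes those shares were 31.7% and 30.6%. The median SD of a member was 0.178 in WT (n = 3) and 0.12 in KO (n = 4), beside 0.197 and 0.142 over all genes. WT varied more in 26 of the 44 (59.1%), against 66.7% of all genes.

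Other genes of import, assembly and quality control, listed without the members and not all of them mitochondrial, gave no called gene either. Of 33 listed, 29 were measured and 0 passed in limma, as did 0.0% of all genes. Of the 29, 17 had a lower mean in KO and 12 a higher one, with a median of -0.19. Over all genes 40.1% were lower and the median was 0.06. Without WT 1 and WT 2 the list's median was -0.02, beside 0.02 over all genes. With all 7 arrays 5 lay lower in KO without overlap, among them the cytosolic chaperone Hsp90aa1, and 1 higher, beside 5.92% and 7.85% of all genes. Pitrm1, which degrades cleaved presequences, read 10.93, 11.15 and 10.48 in WT and 10.30 to 10.40 in KO (-0.50, adjusted p = 0.223). Mtx2, an outer membrane partner of the sorting and assembly machinery, read 10.16, 10.56 and 9.94 in WT and 9.75 to 9.91 in KO (-0.38, adjusted p = 0.235). Hscb, a J protein of iron-sulfur cluster assembly, read 8.13, 8.02 and 8.21 in WT and 7.76 to 7.96 in KO (-0.24, adjusted p = 0.248). Without WT 1 and WT 2 Hscb stood at -0.33, while Pitrm1 and Mtx2 stood at -0.13 and -0.10. Oma1 and Yme1l1, the proteases that cleave OPA1, were chosen for mention after their values were seen. Oma1 read 9.38, 9.29 and 10.39 in WT and 10.07 to 10.36 in KO (0.55), and -0.16 without WT 1 and WT 2, and Yme1l1 differed by 0.04.

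Of 6 listed regulators of the mitochondrial unfolded protein response, 5 were measured and 0 passed, as did 0.0% of all genes. Ddit3, the stress-induced transcription factor CHOP, read 11.38, 11.80 and 10.48 in WT and 10.24, 10.11, 10.20 and 10.63 in KO. WT 3 lay within the KO range, and the difference of -0.93 (limma, adjusted p = 0.223) was -0.19 without WT 1 and WT 2. Atf5 and Atf4, transcription factors of the same response, differed by 0.10 and -0.13, Ubl5 by 0.10 and Cebpb by -0.01. With all 7 arrays, neither these regulators nor the chaperones and proteases among the members were called higher in KO. That fit called 0.0% of all genes, so the lack of calls cannot show whether the response differed.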

How the data were processed

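The authors deposited log2 values of 28846 probe sets on 7 arrays, for which the submitters' processing notes name RMA (background correction, quantile normalization and median polish) and version 1.1 of Affymetrix Expression Console. The log2 scale was read from the values, 3.68 to 14.28. RMA compresses dim signals, so small values understate differences. Of 22206 transcript probe sets, 19572 had a gene symbol in the platform annotation; per symbol the brightest probe set by mean was kept, leaving 19505 genes. All 44 members had 1 probe set. The groups were compared by limma 3.58.1 (R 4.3.3; lmFit and eBayes without covariates), and p-values were adjusted by Benjamini-Hochberg over 19505 genes, with calls under 0.05. The fit was tested on simulated data. The number of arrays limits precision. Members given with every array were those without overlap, the 8 smallest p, and per role the 2 smallest p and the highest mean; values of further members are printed beside these, and of the other genes the 4 smallest p. Members and lists were chosen with earlier results of these data known. Alternatives were leaving out arrays, the replicate number as a block, scaling, a filter on dim probe sets, variance models, array weights, every named probe set and other call rules.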

Additional observations from a re-analysis of the deposited data

Results flagged for a closer look

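In 79 genes examined for a KO array far from the other 3, 4 were found. Distance was the gap to the nearest KO array over the range of the KO arrays, at least 0.829 in these 4. For normally distributed values chance gives about 1 in 20, so the number found is near that expected by chance. Timm17a read 10.12 on KO 4 and 10.33 to 10.36 on the other KO arrays. Timm8a1 read 9.75 on KO 4 and 9.94 to 9.98 on the others, and Oxa1l, an inner membrane insertase, 9.52 on KO 4 and 9.94 to 9.99. Timm8a2 read 6.77 on KO 1 and 5.87 to 5.95 on the others, all at or under the negative control median.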

How the results depend on the processing

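The counts of genes called changed in 2 settings. Leaving out 1 array at a time gave 0 to 4931 called genes, with 0 to 9 members among them, where only the fit without WT 3 gave any. Array weights gave 4458 genes (22.9%), of which 8 were members. They were Tomm34, higher, and Clpp, Dnajc15, Hspd1, Lonp1, Pmpca, Tomm20 and Tomm40, lower; the cause was not tested. No array moved Opa1 past the threshold (-1.50 to -1.0 with 1 array left out). The members' median was -0.08 to -0.01 with 1 array left out. Without WT 1 and WT 2 the sign turned for Dnajc19 (0.07), Lonp1 (0.05), Pmpca (0.13), Tomm40 (0.06) and Trap1 (-0.03). Hspe1, near 0, turned with median centring (0.04), with quantile normalization (0.01) and when KO 3 was left out; leaving out each array in turn gave -0.06 to 0.03. Replicate numbers gave no sign of pairing, as deviations from the group means correlated at -0.04, 0.05 and -0.02 for numbers 1 to 3. With WT arrays so unlike each other, these correlations cannot exclude it. With the replicate block 0 genes and 0 members were called, with Opa1 at -1.48 and the members' median at -0.04. The dim filter removed Opa1 and 4 members. Apart from these values and the calls without WT 3 given above, the alternatives run kept the direction and the side of the threshold for the 17 genes given with every array by the rule.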
